A study of Saccharomyces cerevisiae with 20 samples.

Results

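The genes described here are the 8 of budding yeast (Saccharomyces cerevisiae) that carry tryptophan to nicotinic acid mononucleotide along the kynurenine route, or that feed the same pool from outside the cell: BNA1, BNA2, BNA3, BNA4, BNA5, BNA6, BNA7 and TNA1. They were picked out by gene symbol as members of the pathway, and they are 8 of the 6106 transcripts measured. Polyadenylated RNA of xrn1-H41A and WT cells was profiled by NADcapPro and SPAAC, and RNA of the same strains by standard RNA-seq, and each of the 6 groups so formed had 3 libraries. Both strains are BY4741 (MATa his3Δ1 leu2Δ0 met15Δ0 ura3Δ0) grown in rich medium of yeast extract and peptone. The study's methods list glucose/glycerol as carbon source for both strains, without saying which was used for these libraries. They name exponential growth in YPD for the polysome gradients. In xrn1-H41A cells the exoribonuclease Xrn1, which can also take NAD caps off RNA (deNADding), has 1 residue replaced. The study describes the mutant protein as deficient in deNADding while keeping its exoribonuclease activity. In SPAAC the enzyme ADPRC exchanges the nicotinamide of an NAD cap for an azide, the azide is coupled to biotin without copper, and the labelled RNA is captured on streptavidin. In NADcapPro the scavenger decapping enzyme Dcs1 first removes m7G caps, which ADPRC can also modify. Standard RNA-seq measures all transcripts without selection for the cap, and the RNA input for it is not given in the sources used here.

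De novo NAD synthesis starts with the oxidation of tryptophan by Bna2, and Bna7, Bna4, Bna5, Bna1 and Bna6 act in turn to give nicotinic acid mononucleotide, where the route joins salvage. Bna3 draws kynurenine off to kynurenic acid, and Tna1 imports nicotinic acid from the medium. In yeast, several BNA genes are known to be repressed by Sum1, Rfm1 and the NAD-dependent histone deacetylase Hst1, a complex that Sum1 recruits to DNA, so that their transcription is tied to the supply of NAD. The RefSeq annotation used here names Hst1 as a regulator of BNA1, BNA2, BNA4, BNA5 and BNA6, and of none of BNA3, BNA7 and TNA1.

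The core of the element that Sum1 binds, CACAAA, was searched on both strands from 250 bases before to 50 bases after each annotated start codon. Among the 8 genes only BNA1 held it, once, and the same match extended to the longer form GNCACAAA. The core occurred in 1126 of 5979 such windows, 18.8%, and the longer form, which contains the core, in 259, 4.33%. The match before BNA1 is shown because it is the only one; it lies 139 bases before the start codon and reads in the opposite direction to the gene, so the capitals below mark the reverse complement of GNCACAAA. It is printed 5′ to 3′ on the strand of the gene, the minus strand, from chrX:471800-471829 of assembly R64.
BNA1 window: gaatggctgccTTTGTGACggcgtcaggat
The match is a description of letters in that window. A window without them says nothing of binding there.

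All 8 genes are single-exon genes in the R64 annotation and lie on 6 chromosomes. BNA2 (YJR078W) is at chrX:578860-580221, BNA1 (YJR025C) at chrX:471138-471671 and BNA3 (YJL060W) at chrX:323386-324720. BNA7 (YDR428C) is at chrIV:1323454-1324239, BNA4 (YBL098W) at chrII:39145-40527, BNA5 (YLR231C) at chrXII:605758-607119, BNA6 (YFR047C) at chrVI:244279-245166 and TNA1 (YGR260W) at chrVII:1012485-1014089. These bounds are those of the coding sequence, since the annotation gives no untranslated regions for them. Every 31-mer of each of the 8 transcripts occurred in no other transcript of the set, so reads could be assigned to them without sharing. Each of the 8 passed the filter on low counts in every comparison, with 107 to 11730 counts per library.

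The 18 libraries held 13038320 to 33816015 assigned counts. Defining transcripts of the strain were checked. MET17, the gene of met15Δ0, had 0 counts in all libraries, where 3 counts correspond to 0.0887 to 0.2301 CPM. LEU2 and URA3 did not exceed 0.240 and 0.160 CPM. HIS3 was present at 99.1 to 512 CPM. How much of the gene his3Δ1 removes was not checked, so this value does not check the label. XRN1 transcript averaged 323 ± 3.77 CPM in xrn1-H41A RNA-seq and 492 ± 7.07 CPM in WT RNA-seq (SD, n = 3 each), which does not check the label because the mutation is a substitution.

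RNA-seq of xrn1-H41A against WT cells asked whether the mutation moved the transcripts themselves, before any selection for the cap. Transcripts of 6 of the 8 genes fell at least 2-fold in xrn1-H41A: BNA2, BNA4, BNA5, BNA1, BNA6 and TNA1. A gene is said to rise or fall where its change was at least 2-fold with an adjusted p of at most 0.01 (edgeR quasi-likelihood test, Benjamini-Hochberg adjustment over all transcripts tested). By that rule 2.53% of the 5965 transcripts tested fell and 7.69% rose, and none of the 8 rose. The median log2 fold change was -1.76 for the 8 genes and 0.0031 for all transcripts tested. Values below are counts per 1000000 assigned counts, with library sizes scaled by TMM over the 18 libraries (CPM), which compare 1 gene between libraries but not genes of different length.

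BNA2, which encodes the tryptophan dioxygenase of the first step, had 6.25, 6.79 and 6.67 CPM in xrn1-H41A RNA-seq, against 39.2, 33.4 and 38.7 CPM in WT RNA-seq. All mutant libraries were far below all WT libraries. Its log2 fold change was -2.50 ± 0.09 (SE; adjusted p 4.62e-12), 5.65-fold lower.

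BNA7, the formamidase that releases kynurenine, had 23.5, 23.8 and 24.9 CPM in xrn1-H41A RNA-seq, against 33.2, 37.0 and 34.4 CPM in WT RNA-seq. The groups did not overlap, but the log2 fold change of -0.54 ± 0.07 was under 2-fold (adjusted p 2.37e-06).

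BNA4, the kynurenine monooxygenase, showed the largest difference of the 8. It had 20.8, 20.6 and 22.2 CPM in xrn1-H41A RNA-seq, against 169, 190 and 183 CPM in WT RNA-seq. The mutant libraries lay close together, each at a small part of the WT level. The log2 fold change was -3.10 ± 0.05 (adjusted p 3.34e-15), 8.59-fold lower, and 0.0671% of the transcripts tested had a lower value.

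BNA5, the kynureninase, had 25.3, 25.7 and 25.2 CPM in xrn1-H41A RNA-seq, against 128, 134 and 125 CPM in WT RNA-seq. The spread among the mutant libraries was small beside the gap between strains. BNA5 was 5.08-fold lower, at -2.35 ± 0.05 on the log2 scale (adjusted p 1.12e-14).

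BNA1, the hydroxyanthranilate dioxygenase, had 28.6, 29.5 and 29.9 CPM in xrn1-H41A RNA-seq, against 111, 119 and 128 CPM in WT RNA-seq. The strains were again separated in every library. BNA1 was 4.09-fold lower, at -2.03 ± 0.05 on the log2 scale (adjusted p 1.12e-13).

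BNA6, the quinolinate phosphoribosyltransferase that closes the route, had 95.6, 97.0 and 92.4 CPM in xrn1-H41A RNA-seq, against 264, 262 and 273 CPM in WT RNA-seq. Every mutant library was below every WT library. BNA6 was 2.80-fold lower, at -1.49 ± 0.04 on the log2 scale (adjusted p 3.49e-14).

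BNA3, the kynurenine aminotransferase of the side branch, had 57.3, 63.8 and 59.4 CPM in xrn1-H41A RNA-seq, against 73.0, 70.4 and 66.7 CPM in WT RNA-seq. In CPM the groups came near to each other without overlapping. The log2 fold change of -0.21 ± 0.05 was the smallest of the 8 (adjusted p 0.00174).

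TNA1, the high-affinity nicotinic acid permease of the plasma membrane, had 176, 182 and 187 CPM in xrn1-H41A RNA-seq, against 418, 423 and 415 CPM in WT RNA-seq. The strains did not overlap. TNA1 was 2.31-fold lower, at -1.21 ± 0.04 on the log2 scale (adjusted p 1.08e-12).

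The 5 genes for which the annotation names Hst1 as a regulator were thus among the 6 that fell, and TNA1 was the sixth. Whether Hst1 had a part in these falls was not tested. In a bulk sample, fewer cells expressing a gene and less RNA per cell cannot be told apart, and the labels do not say whether the mutant is 1 clone.

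**Figure D1:**
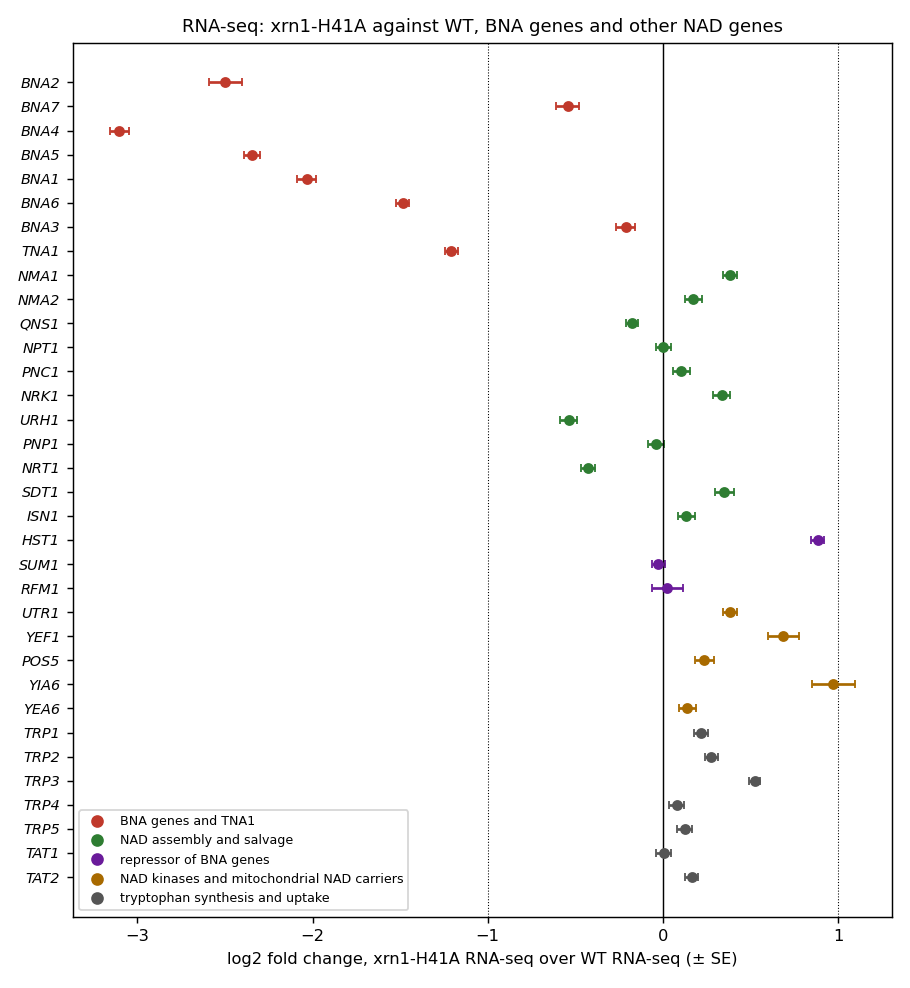
Log2 fold change of xrn1-H41A RNA-seq over WT RNA-seq (horizontal axis, points with SE, 3 libraries per strain) for the 8 genes in pathway order, at the top, and for 26 other genes of NAD metabolism, its repressor and tryptophan supply. BNA2, BNA4, BNA5, BNA1, BNA6 and TNA1 lie left of the dotted line at -1, and the 26 other genes lie between -0.54 and 0.97.

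None of the other genes of NAD metabolism listed here passed the rule for a fall. Of 26 genes tested in 4 lists, 0 rose and 0 fell in xrn1-H41A RNA-seq. Of all 5965 transcripts tested 2.53% fell and 7.69% rose, so a count of 0 does not set the 26 apart from other transcripts. Their log2 fold changes ran from -0.54 to 0.97 with a median of 0.15. The lists held 11 genes of NAD assembly and salvage, the 3 subunits of the Sum1 complex, 5 NAD kinases and mitochondrial NAD carriers, and 7 genes of tryptophan synthesis and uptake. HST1, singled out after its values were seen, averaged 278 ± 9.15 CPM in xrn1-H41A RNA-seq and 151 ± 5.40 CPM in WT RNA-seq (SD, n = 3 each), a log2 fold change of 0.88 ± 0.04 that was under 2-fold. SUM1 and RFM1 had log2 fold changes of -0.027 and 0.024. Of the 12 tested genes that flank the 6 genes that fell, 2 also fell, YJR079W beside BNA2 and YJR027W beside BNA1, and 0 rose. Over all transcripts tested 2.53% fell and 7.69% rose. The median log2 fold change of the 12 flanking genes was -0.17. Whether the flanking genes share sequence with other transcripts was not checked, so their values may not belong to these loci alone. YJR026W, the locus next in number to YJR027W, is on the study's list of transposition genes. The 2 falls are therefore not read as a change around BNA2 and BNA1.

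Mating-type transcripts moved with strain as well. The 5 a-cell genes MFA1, MFA2, STE2, STE6 and BAR1 summed to 825 to 859 CPM in xrn1-H41A RNA-seq and 1599 to 1660 CPM in WT RNA-seq, and MFA1 and MFA2 fell. The 4 α-cell genes summed to 139 to 148 CPM in xrn1-H41A RNA-seq and 53.1 to 53.9 CPM in WT RNA-seq. Of these, SAG1 and MF(ALPHA)2 rose while STE3 and MF(ALPHA)1 fell, and MF(ALPHA)1, the main α-factor gene, was near 0 in both strains, at 0.347 CPM in xrn1-H41A and 0.914 CPM in WT. The part of these differences in the change of the BNA genes was not tested.

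Levels of different genes were compared per length, as TPM. In xrn1-H41A RNA-seq the order was BNA6 at 74.2 ± 1.33 TPM, TNA1 at 69.3 ± 3.08, BNA1 at 50.2 ± 1.33, BNA3 at 28.6 ± 0.95, BNA7 at 23.6 ± 0.87, BNA5 at 11.8 ± 0.21, BNA4 at 9.51 ± 0.60 and BNA2 at 2.93 ± 0.09 (SD, n = 3). No neighbours in that order overlapped between libraries. In WT RNA-seq it was BNA6 at 178 ± 4.72 TPM, BNA1 at 176 ± 8.76, TNA1 at 136 ± 0.56, BNA4 at 69.2 ± 3.28, BNA5 at 51.4 ± 1.40, BNA7 at 29.1 ± 1.20, BNA3 at 28.5 ± 1.46 and BNA2 at 14.2 ± 1.44. BNA6 and BNA1 overlapped there, as did BNA7 and BNA3. BNA2 thus had the lowest and BNA6 the highest mean of the 8 in both strains, while BNA4 and BNA5 stood above BNA7 and BNA3 in WT and below them in xrn1-H41A. The size of the strain change differed from that in CPM, and in TPM it was not tested. By TPM the strains overlapped for BNA3, at 27.5 to 29.4 in xrn1-H41A and 27.2 to 30.1 in WT RNA-seq. The TPM means of TNA1 differed by slightly less than 2-fold. Computed with the annotated in place of the effective length, TPM was 1.04 to 1.81 times as high, and TNA1 stood above BNA6 in xrn1-H41A and above BNA1 in WT, and BNA3 above BNA7 in WT.

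**Figure D2:**
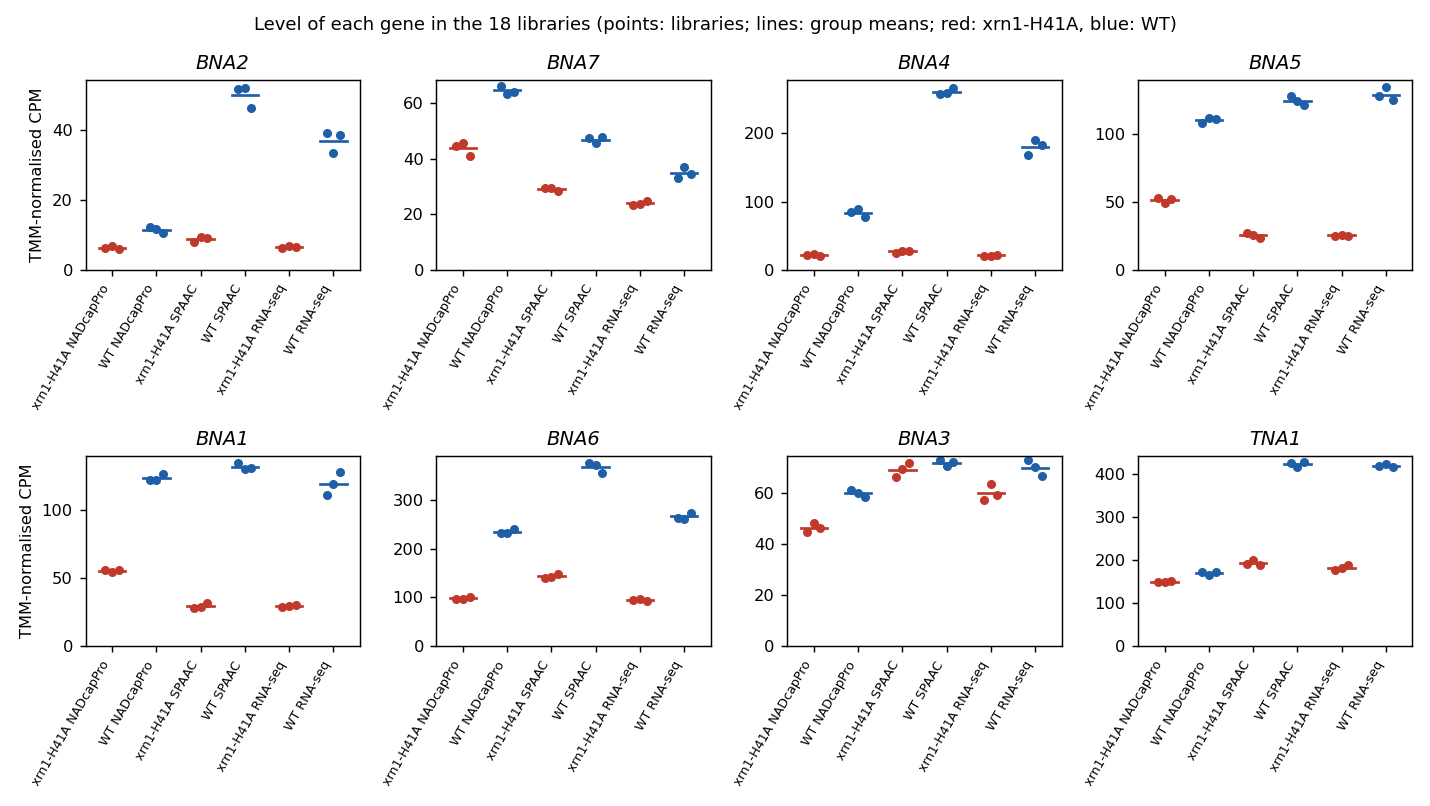
CPM (vertical axis, TMM-scaled, from 0) of each gene in the 18 libraries, with xrn1-H41A in red left of WT in blue for NADcapPro, SPAAC and RNA-seq; points are libraries and lines are group means. BNA2, BNA4, BNA5, BNA1 and BNA6 are lower in xrn1-H41A than in WT in each of the 3 assays, and TNA1 differs far less between strains in NADcapPro than in SPAAC or RNA-seq.

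NADcapPro against RNA-seq asked which transcripts were enriched by selection for the NAD cap after removal of m7G caps. In xrn1-H41A cells 1 of the 8 genes, BNA5, rose in NADcapPro and 0 fell, where 14.3% of the 6046 transcripts tested rose and 9.87% fell. In WT cells 0 of the 8 rose and 3 fell, BNA2, BNA4 and TNA1, where 13.1% of the 6020 transcripts tested rose and 9.85% fell. The 8 genes had a median of 0.086 in xrn1-H41A and -0.22 in WT on the log2 scale, against 0.024 and 0.0061 for all transcripts tested.

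BNA2 had 6.17, 6.76 and 5.99 CPM in xrn1-H41A NADcapPro, which overlapped the RNA-seq libraries of that strain, and its log2 fold change over RNA-seq was -0.0066 ± 0.11 (adjusted p 0.958). In WT NADcapPro it had 12.3, 11.6 and 10.4 CPM, all below the WT RNA-seq libraries. The log2 fold change in WT was -1.69 ± 0.08 (adjusted p 1.60e-10), 3.23-fold lower in NADcapPro.

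BNA4 had 21.4, 22.6 and 20.7 CPM in xrn1-H41A NADcapPro, again within reach of that strain's RNA-seq values, with a log2 fold change of 0.080 ± 0.07 (adjusted p 0.276). In WT NADcapPro it had 84.5, 88.7 and 77.9 CPM, all below WT RNA-seq. In WT the log2 fold change was -1.11 ± 0.05 (adjusted p 6.81e-11), 2.16-fold lower. Scaled by library totals alone, that value was -0.97 and no longer 2-fold.

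TNA1 had 150, 148 and 152 CPM in xrn1-H41A NADcapPro, somewhat below that strain's RNA-seq, with a log2 fold change of -0.23 ± 0.04 (adjusted p 2.54e-05). In WT NADcapPro it had 171, 166 and 173 CPM, all well below WT RNA-seq. In WT the log2 fold change was -1.30 ± 0.03 (adjusted p 2.82e-13), 2.47-fold lower.

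BNA5 had 53.2, 48.9 and 52.4 CPM in xrn1-H41A NADcapPro, all well above the RNA-seq libraries of that strain. The log2 fold change was 1.07 ± 0.05 (adjusted p 5.89e-11), 2.09-fold higher. In WT NADcapPro it had 108, 112 and 111 CPM, just below WT RNA-seq, with a log2 fold change of -0.23 ± 0.04 (adjusted p 3.29e-05).

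BNA1 followed BNA5 in xrn1-H41A, with 55.9, 54.6 and 55.9 CPM in NADcapPro and a log2 fold change over RNA-seq of 0.97 ± 0.05 (adjusted p 5.42e-11), short of 2-fold. Its WT NADcapPro libraries, at 122, 122 and 127 CPM, overlapped WT RNA-seq. BNA7 was above RNA-seq by a similar amount in both strains. It had 44.5, 45.8 and 41.2 CPM in xrn1-H41A NADcapPro and 66.4, 63.3 and 64.3 CPM in WT NADcapPro, with log2 fold changes of 0.92 ± 0.06 and 0.88 ± 0.05, both under 2-fold. Scaled by library totals alone, BNA7 rose in both strains and BNA1 in xrn1-H41A.

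BNA6 and BNA3 stayed close to RNA-seq. BNA6 had log2 fold changes of 0.092 ± 0.04 in xrn1-H41A and -0.18 ± 0.04 in WT, and BNA3 had -0.32 ± 0.05 in xrn1-H41A and -0.22 ± 0.04 in WT.

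The log2 fold change in NADcapPro ran with transcript length, since its median in WT was 0.49 for transcripts within 10% of the length of BNA1, 534 nt, and -0.093 for those within 10% of the length of TNA1, 1605 nt. Each gene was therefore also set beside the transcripts within 10% of its length. In WT, 0.296% of the 676 transcripts of similar length had a lower value than BNA2, 2.19% of 684 had one lower than TNA1, and 2.86% of 699 had one lower than BNA4. In xrn1-H41A the same shares were 45.1% of 685 for BNA2, 41.5% of 684 for TNA1 and 48.0% of 708 for BNA4. BNA5 exceeded 88.8% of 685 transcripts of its length in xrn1-H41A and 29.9% of 676 in WT. BNA7 exceeded 77.7% of 439 in xrn1-H41A and 76.7% of 438 in WT, and BNA6 exceeded 35.6% of 539 in xrn1-H41A and 18.7% of 539 in WT. BNA1, the shortest of the 8 at 534 nt, exceeded 73.3% of 273 in xrn1-H41A and 28.3% of 269 in WT. With the trend on length removed, each of the 3 falls in WT and the rise of BNA5 in xrn1-H41A still passed the thresholds.

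**Figure D3:**
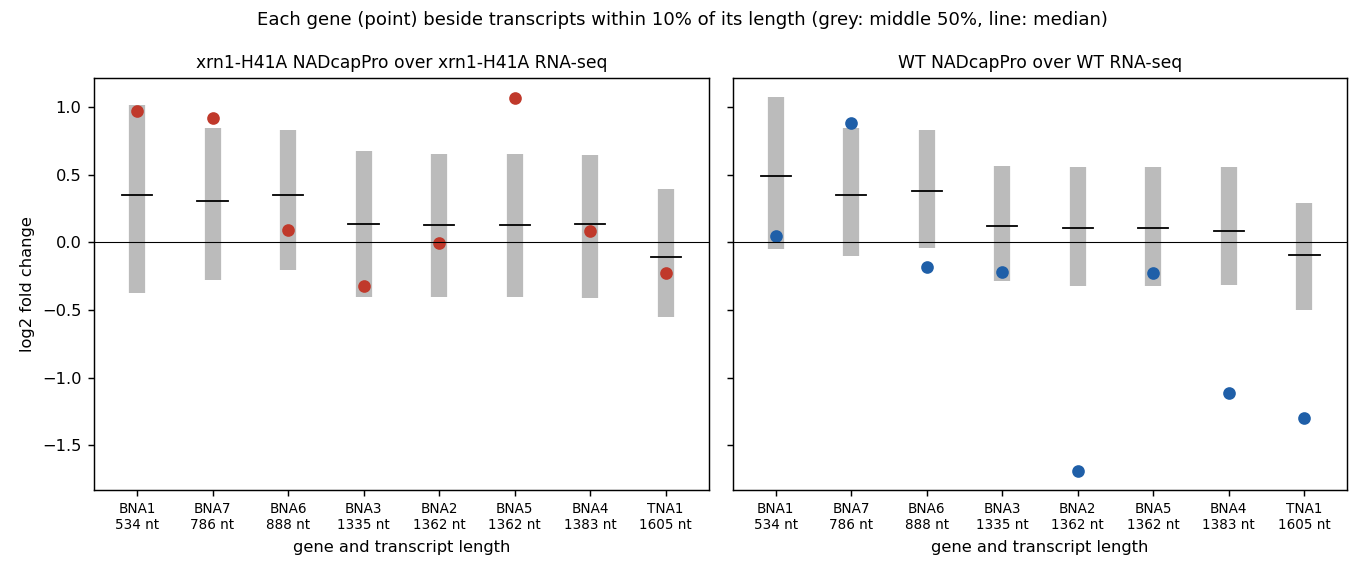
Log2 fold change of NADcapPro over RNA-seq (vertical axis) in xrn1-H41A, left, and WT, right, for each gene (point) in order of transcript length in nt, with the median (line) and middle 50% (grey) of the transcripts within 10% of that length. BNA2, BNA4 and TNA1 lie below the grey range in WT and inside it in xrn1-H41A, BNA6 lies below it in WT, BNA5 lies above it in xrn1-H41A, and BNA7 lies just above it in both strains.

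In SPAAC, which keeps m7G caps, none of the 8 genes rose or fell over RNA-seq in either strain. In xrn1-H41A SPAAC 4.39% of the 5968 transcripts tested rose and 13.8% fell, and in WT SPAAC 4.77% of 5979 rose and 15.9% fell. The log2 fold changes of the 8 ran from 0.078 for BNA1 to 0.68 for BNA6 in xrn1-H41A, and from -0.062 for BNA5 to 0.52 for BNA4 in WT. TNA1 had 191, 199 and 187 CPM in xrn1-H41A SPAAC, and its WT SPAAC libraries, at 424, 415 and 427 CPM, overlapped WT RNA-seq. The medians of the 8 were 0.33 in xrn1-H41A and 0.27 in WT, against -0.00043 and 0.023 for all transcripts tested.

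NADcapPro set directly against SPAAC asked what the removal of m7G caps changed. In xrn1-H41A 0 of the 8 rose and 0 fell, where 18.7% of the 6039 transcripts tested rose and 17.8% fell. In WT 0 rose, and BNA2, BNA4 and TNA1 fell, where 13.3% of the 6017 transcripts tested rose and 11.3% fell. BNA2, at 10.4 to 12.3 CPM in WT NADcapPro, had 51.8, 52.2 and 46.4 CPM in WT SPAAC, so that it was 4.83-fold lower in NADcapPro, a log2 fold change of -2.27 ± 0.07 (adjusted p 1.75e-16). BNA4, at 77.9 to 88.7 CPM in WT NADcapPro, had 258, 259 and 266 CPM in WT SPAAC, and was 3.43-fold lower in NADcapPro, at -1.78 ± 0.04 (adjusted p 1.01e-18). TNA1 was 2.74-fold lower in WT NADcapPro than in WT SPAAC, at -1.45 ± 0.03 (adjusted p 2.14e-19), and at -0.85 when scaled by library totals alone. The comparisons with RNA-seq and with SPAAC use the same NADcapPro libraries, so they do not stand as separate evidence. In xrn1-H41A the largest differences between NADcapPro and SPAAC were 0.80 ± 0.06 for BNA5 and -0.77 ± 0.05 for BNA3. Scaled by library totals alone, which raised the median of all transcripts to 0.85, BNA5, BNA1 and BNA7 rose at 1.61, 1.53 and 1.19.

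The strain difference in enrichment was then tested as an interaction, the log2 fold change of NADcapPro over RNA-seq in xrn1-H41A minus that in WT. It was higher in xrn1-H41A for 4 of the 8, BNA2, BNA4, BNA5 and TNA1, and lower for 0, where 4.19% of the 6059 transcripts tested were higher and 2.94% lower. The difference was 1.70 ± 0.14 for BNA2 (adjusted p 3.52e-09), 1.31 ± 0.06 for BNA5 (adjusted p 2.42e-12), 1.21 ± 0.08 for BNA4 (adjusted p 3.93e-10) and 1.09 ± 0.05 for TNA1 (adjusted p 8.35e-13). BNA1 was just below the limit at 0.94 ± 0.07 (adjusted p 4.34e-10), and passed it at 1.04 with library totals alone and at 1.07 with the length trend removed. BNA6 differed by 0.29 ± 0.05, BNA7 by 0.044 ± 0.08 (adjusted p 0.612) and BNA3 by -0.091 ± 0.07 (adjusted p 0.244). For SPAAC the same interaction was higher for 0 of the 8 and lower for 0, where 0.0998% of the 6010 transcripts tested were higher and 0.566% lower, and the 8 values lay between -0.18 for BNA4 and 0.16 for BNA3.

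This interaction and the RNA-seq comparison share their RNA-seq libraries, and both interactions share them too, so the values of each assay are given side by side without a test. BNA2 averaged 6.31 ± 0.40 CPM in xrn1-H41A and 11.4 ± 0.94 CPM in WT by NADcapPro, a level 55.1% of WT, where SPAAC gave 17.6% and RNA-seq 17.7% (SD, n = 3). BNA4 averaged 21.6 ± 0.99 CPM in xrn1-H41A and 83.7 ± 5.48 CPM in WT by NADcapPro, 25.8% of WT, where SPAAC gave 10.3% and RNA-seq 11.7%. For BNA2 and BNA4 the deficit of the mutant was smaller in NADcapPro than in the assays that keep m7G caps. BNA5 was at 46.7% of WT by NADcapPro, 20.4% by SPAAC and 19.7% by RNA-seq. BNA1 was at 45.0%, 22.2% and 24.6% in the same order of assays. TNA1 was at 88.2% by NADcapPro, 45.6% by SPAAC and 43.4% by RNA-seq, the smallest deficit of the 6 in NADcapPro. BNA6 was at 41.9%, 39.0% and 35.7%, and BNA7 at 67.8%, 62.0% and 69.1%, with smaller differences between assays. BNA3 was at 77.6%, 96.2% and 85.97%, so its deficit was largest in NADcapPro.

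**Figure D4:**
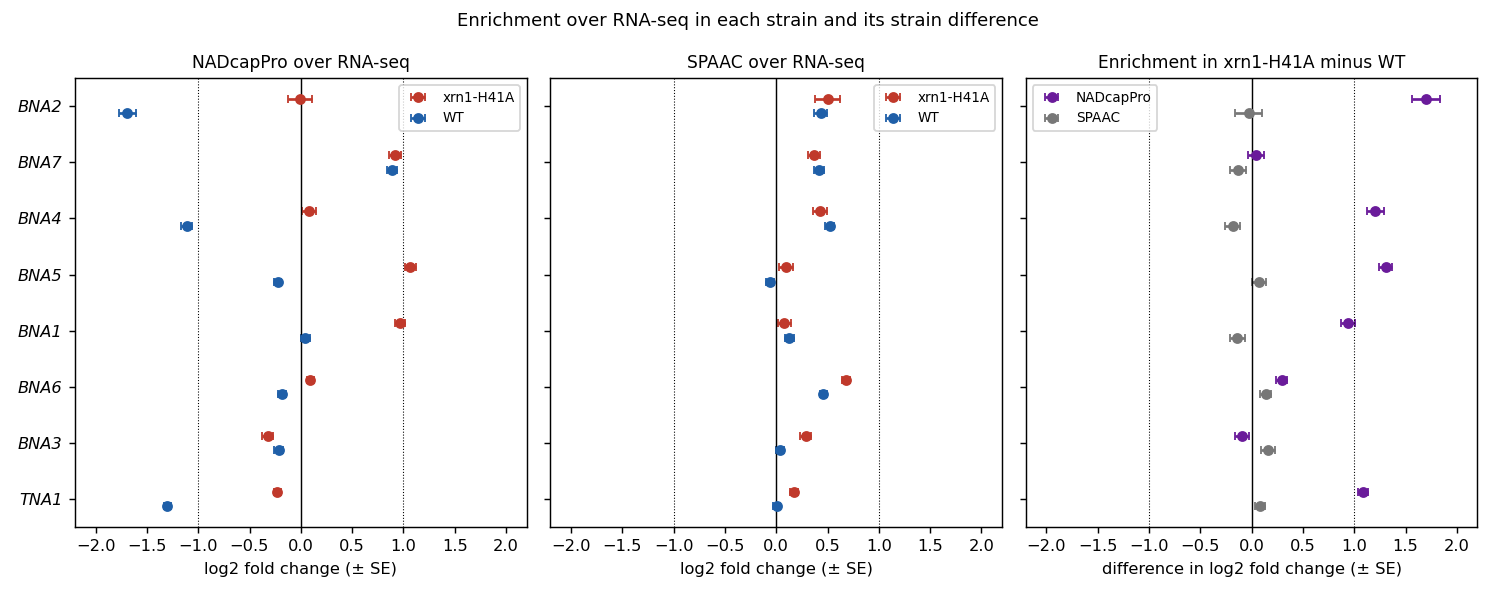
Log2 fold change of NADcapPro over RNA-seq (left) and of SPAAC over RNA-seq (middle) for each gene in xrn1-H41A (red) and WT (blue), and the difference xrn1-H41A minus WT for both assays (right); points with SE, 3 libraries per group, dotted lines at -1 and 1. BNA2, BNA4 and TNA1 lie left of -1 only for NADcapPro in WT, and the strain difference exceeds 1 for BNA2, BNA4, BNA5 and TNA1 in NADcapPro and for no gene in SPAAC.

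Among the 26 other genes of NAD metabolism, 3 rose and 0 fell in xrn1-H41A NADcapPro, and 4 rose and 2 fell in WT NADcapPro, each over RNA-seq. Over all transcripts tested 14.3% rose and 9.87% fell in xrn1-H41A, and 13.1% rose and 9.85% fell in WT. YIA6, a mitochondrial NAD carrier, rose in both strains, by 1.43 ± 0.08 in xrn1-H41A and 1.88 ± 0.09 in WT on the log2 scale. SDT1, a nucleotidase that yields nicotinamide riboside, also rose in both strains, by 1.32 ± 0.04 in xrn1-H41A and 1.21 ± 0.05 in WT. PNC1, the nicotinamidase of salvage, averaged 169 ± 5.83 CPM in xrn1-H41A NADcapPro, against 462 ± 5.61 CPM in WT NADcapPro, and rose over RNA-seq in WT by 1.56 ± 0.03, with 0.044 ± 0.05 in xrn1-H41A. NRT1, the nicotinamide riboside transporter, and SUM1 fell in WT, at -1.25 ± 0.04 and -1.24 ± 0.04. The strain difference in NADcapPro enrichment was higher in xrn1-H41A for 2 of the 26, against 4.19% of all transcripts tested, NRT1 at 1.36 ± 0.06 and SUM1 at 1.14 ± 0.05. It was lower for 2, against 2.94% of all, PNC1 at -1.50 ± 0.07 and NPT1, the nicotinate phosphoribosyltransferase, at -1.14 ± 0.06. The median of the 26 was -0.021, and that of the 8 genes was 1.01.

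Over the 6 groups, the means of BNA4 spanned 12.3-fold, those of BNA2 7.95-fold, BNA5 5.09-fold, BNA1 4.50-fold, BNA6 3.87-fold, TNA1 2.82-fold, BNA7 2.68-fold and BNA3 1.55-fold. WT SPAAC was the highest group for BNA2, BNA4, BNA1, BNA6, BNA3 and TNA1, although for BNA3 and TNA1 its libraries overlapped those of WT RNA-seq. WT RNA-seq was the highest for BNA5, where it overlapped WT SPAAC, and WT NADcapPro was the highest for BNA7. The lowest group was xrn1-H41A NADcapPro for BNA2, BNA3 and TNA1, xrn1-H41A RNA-seq for BNA7, BNA4 and BNA6, and xrn1-H41A SPAAC for BNA5 and BNA1. The 2 lowest groups overlapped for BNA2, BNA4, BNA5, BNA1 and BNA6.

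The shape of each profile over the 18 libraries was compared with 5457 transcripts by Pearson's r of log2 CPM, as a description, since libraries of 1 group share strain and assay. BNA5 and BNA1 were each other's closest profile, at 0.99. BNA2 and BNA4 had an r of 0.96, BNA4 and BNA6 of 0.97, and BNA2 and TNA1 of 0.96. By r, BNA7 and BNA3 stood apart from the rest, since their closest genes of the 8 were BNA1 at 0.77 and TNA1 at 0.73. By rank correlation (Spearman's rho) BNA3 did not, at 0.90 with TNA1 and 0.82 with BNA2, against 0.79 for BNA5 and BNA1. BNA7 reached at most 0.75 by rho, with BNA1, and BNA2 and TNA1 also had 0.75. Outside the 8, the closest profiles were GOT1 for BNA2 at 0.98, ICY1 for BNA7 at 0.99, CYC1 for BNA4 at 0.99 and FUS1 for both BNA5 and BNA1 at 0.99. They were GCV3 for BNA6 at 0.99, ATP5 for BNA3 at 0.98 and ALG7 for TNA1 at 0.96. By rho, FUS1 stood at 0.85 with BNA5 and 0.76 with BNA1, and the other pairs at 0.90 to 0.95.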

How the data were processed

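The authors trimmed reads with fastp 0.23.2 and removed rRNA reads with hisat2, and transcripts of RefSeq R64 were quantified with kallisto 0.48.0. The authors deposited estimated counts per transcript, rounded to whole numbers, with transcript and effective lengths. TPM was recomputed from these. Libraries were grouped by strain and assay from the labels, and 2 libraries without ADPRC were not used, because the labels give these samples a strain but the names in the deposited table do not say which library is which.

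Comparisons were run in R 4.3.3 with edgeR 4.0.16 (glmQLFit, glmQLFTest, TMM, filterByExpr) on the libraries compared, with Benjamini-Hochberg adjustment over all transcripts tested, and strain differences in enrichment as interactions. Standard errors came from the F statistic. Replicate counts differed by 3.04 to 13.1 chi-square units per transcript, above sampling noise. The study's methods describe independent biological replicates. On simulated counts, with 200 transcripts changed by 2 log2 units, 200 were recovered with 0 false calls for WT NADcapPro over WT RNA-seq among 6018, for xrn1-H41A RNA-seq over WT RNA-seq among 5973 and for the NADcapPro interaction among 6053. These counts had the same dispersion for every transcript, changes well past 2-fold, no changed transcript of very low level, and otherwise no effects. They check that the code runs as meant and do not give an error rate for calls near 2-fold.

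The 8 genes, the lists and the tests were chosen with earlier results of these data known. Of the other lists, the rule named those that passed both thresholds in NADcapPro or RNA-seq strain comparisons, at most 2 per direction, and, for each of the 8, the transcript outside them of highest r among those with a mean of at least 10 CPM. Alternatives were DESeq2 1.42.0 size factors, scaling to library totals only, keeping transcripts of low count, DESeq2's Wald test, a replicate block, correction for a length trend (lowess), each replicate left out, and annotated lengths for TPM. Locations and sequence came from RefSeq R64, in which 6098 of the 6106 transcripts were found, each of the same length. Python 3.11.15, pandas 2.3.3, NumPy 2.4.6 and matplotlib 3.10.9 were used. Reads carry no molecular identifiers, so limits on counts of 0 cover counting error only.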

Additional observations from a re-analysis of the deposited data

Results flagged for a closer look

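The enrichment of 4 of the 8 genes in NADcapPro differed between the strains by the interaction test itself, each more than 2-fold and higher in xrn1-H41A. The difference in log2 fold change over RNA-seq was 1.70 for BNA2, 1.21 for BNA4, 1.31 for BNA5 and 1.09 for TNA1. For BNA2, BNA4 and TNA1 it lay mainly in WT, with values of -1.69, -1.11 and -1.30, and for BNA5 mainly in xrn1-H41A, with 1.07. In xrn1-H41A, BNA2, BNA4 and TNA1 were at -0.0066, 0.080 and -0.23, so they did not rise there. NADcapPro CPM in xrn1-H41A was below WT for each, at 55.1% for BNA2, 25.8% for BNA4, 46.7% for BNA5 and 88.2% for TNA1. RNA-seq gave 17.7%, 11.7%, 19.7% and 43.4% in the same order. All 4 differences stayed past both thresholds under each of the alternatives run.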

How the results depend on the processing

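The 72 values (8 genes in 9 comparisons) were recomputed under 9 alternatives, 648 values in all, of which 601 kept their direction and their side of the thresholds, 37 changed sign, 8 newly passed the thresholds and 2 no longer did. The 6 falls in xrn1-H41A RNA-seq and the 4 strain differences in NADcapPro enrichment passed under every alternative run. Scaling by library totals alone moved most, and under it the median of all transcripts reached 0.85 for NADcapPro over SPAAC in xrn1-H41A. Under it the genes at least 2-fold higher numbered 1 for NADcapPro over RNA-seq in WT, 3 for the same in xrn1-H41A and 3 for NADcapPro over SPAAC in xrn1-H41A, against 0, 1 and 0.

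No value that changed sign had passed the thresholds, and the cause was not tested. With library totals alone, NADcapPro over RNA-seq in xrn1-H41A became 0.25 for BNA2 and 0.027 for TNA1. SPAAC over RNA-seq became -0.014 for BNA7, -0.29 for BNA5, -0.30 for BNA1, -0.097 for BNA3 and -0.21 for TNA1 in xrn1-H41A, and -0.19 for BNA1, -0.27 for BNA3 and -0.31 for TNA1 in WT. NADcapPro over SPAAC became 0.13 for BNA2, 0.29 for BNA4, 0.054 for BNA6, 0.0325 for BNA3 and 0.24 for TNA1 in xrn1-H41A, and 0.29 for BNA5, 0.37 for BNA1 and 0.20 for BNA3 in WT. The strain difference in NADcapPro enrichment of BNA3 became 0.0063. With the length trend removed, NADcapPro over RNA-seq became -0.19 for BNA6 in xrn1-H41A and -0.43 for BNA1 in WT. SPAAC over RNA-seq became -0.0055 for BNA7 and -0.37 for BNA1 in xrn1-H41A, and -0.0010 for BNA7, -0.37 for BNA1 and -0.026 for BNA3 in WT. With DESeq2 size factors and with DESeq2's Wald test, SPAAC over RNA-seq of TNA1 in WT became -0.0083 and -0.0081. The strain difference in SPAAC enrichment of BNA2 became 0.046 with the size factors, 0.051 with the Wald test and 0.028 with the length trend removed, and that in NADcapPro enrichment of BNA7 became -0.032 without the filter.

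Leaving out 1 replicate moved no count of genes. Values that changed sign ranged from -0.041 to 0.041 for BNA2 in NADcapPro over RNA-seq in xrn1-H41A, from -0.0081 to 0.024 for TNA1 in SPAAC over RNA-seq in WT, from -0.057 to 0.11 for BNA7 in the NADcapPro strain difference, and from -0.14 to 0.065 for BNA2 in the SPAAC strain difference.

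The replicate numbers did not pair the libraries, since the correlation of same-numbered deviations was -0.19 to 0.095. Under a replicate block all 72 values kept their direction and calls, and 6 genes fell in xrn1-H41A RNA-seq. TPM moved by more than the replicate SD in 47 of 48 values with annotated lengths. The lowest count of any of the 8 genes was 107, and the shallowest library held 13038320 counts.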
